A study of Caenorhabditis elegans with 6 samples.

Results

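Translation factors and aminoacyl-tRNA synthetases were followed in RNA from whole Caenorhabditis elegans larvae in L1 arrest, the halt of development that follows hatching without food. The members were the protein-coding genes named eif, eef, ife, ifg or iff (initiation and elongation factors) or with an amino acid letter before ars (synthetases). There were 70 of them among the 45519 genes of the deposited table, 38 factors and 32 synthetases. One strain carried the aqz 3 allele of a gene for a long noncoding RNA, linc-133, and is called mutant here. It was set against the wild-type strain N2. Eggs of both strains were kept in M9, a buffer without food, for 3 days at 20 °C, so hatched larvae of both strains were starved and arrested. There were 3 RNA-seq libraries per strain, all from whole bodies, and the labels do not state what kind of lesion aqz 3 is. Nor do they say that replicates are separate cultures, so the p-values cover only the spread among libraries, which could be technical.

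Synthetases attach each amino acid to its tRNA, and animals make one set for the cytosol and another for the mitochondria, with some enzymes serving both. In initiation, eIF2 brings the starting methionyl-tRNA to the small ribosomal subunit, eIF2B reloads eIF2 with GTP, and eIF4E and eIF4G bring in the capped mRNA. During elongation, eEF1A delivers the charged tRNAs, eEF2 moves the ribosome along, and eIF5A helps it past stretches that stall. Phosphorylation of eIF2 and reduced activity of the TOR kinase both lower translation when food or amino acids run short, which is the setting of larval arrest. Of the same machinery, eIF3 subunits a and m (egl-45, cif-1), eIF4A (inf-1), eIF5B (iffb-1) and the cytosolic valine enzyme (glp-4) lie outside the name pattern.

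Values are FPKM, fragments per kilobase of a gene, relative to the size of its library. Recovered reads numbered between 16108063 and 18556695 per library. The authors' scaling differed by library, from 0.900 in mutant replicate 3 to 1.12 in mutant replicate 1, as the read total implied by the FPKM over the recovered total. The gene linc-133 itself (chromosome II, 7837826 to 7841485, WBcel235) measured 0.0878, 0.0373 and 0.0387 FPKM in mutant replicates 1, 2 and 3, against 0.142, 0.101 and 0.0883 FPKM in N2. That is 6, 2 and 2 reads in the mutant and 9, 6 and 5 in N2, so the gene was near its floor in both strains. Marker sums matched the labelled stage and tissue in part: body wall muscle, pharynx, intestine and neuron genes were all detected, while yolk genes of adults summed to 0.643 to 1.69 FPKM in mutant and 1.42 to 1.99 FPKM in N2 libraries. Germline and early embryo genes summed to 342 to 380 FPKM in mutant and 289 to 410 FPKM in N2 libraries. The sperm genes msp-3, msp-10 and msp-19 were listed at 0, and ssp-9 stayed below 1 FPKM. spe-9 averaged 1.69 FPKM in mutant and 1.65 FPKM in N2. msp-31 had 0.632, 2.10 and 3.01 FPKM in mutant and 0.273, 0.435 and 0.610 FPKM in N2 libraries, without overlap (limma adjusted p = 0.414). Of the epidermal genes, dpy-10, a cuticle collagen, was listed at 0, and rol-6 and bli-1 stayed below 1 FPKM. dpy-7 averaged 62.4 FPKM in mutant and 55.2 FPKM in N2, and lin-26 16.4 and 21.2 FPKM. In whole bodies, fewer cells of a type and less RNA per cell cannot be told apart.

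Levels per gene length followed the role of the gene. Genes for elongation and eIF5A had means over the 6 libraries between 82.6 and 4678 FPKM, with a median of 924 FPKM. The eIF3 subunits lay between 32.0 and 138 FPKM, the cytosolic synthetases between 31.4 and 171 FPKM, and the eIF2B subunits between 16.2 and 21.2 FPKM. Mitochondrial synthetases lay lowest, between 1.38 and 32.9 FPKM with a median of 13.0 FPKM among the 10 tested. The 5 eIF2B subunits, which assemble into one complex, lay within a narrow range, below all 3 subunits of their substrate eIF2 at 58.4 to 100.4 FPKM.

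**Figure D1:**
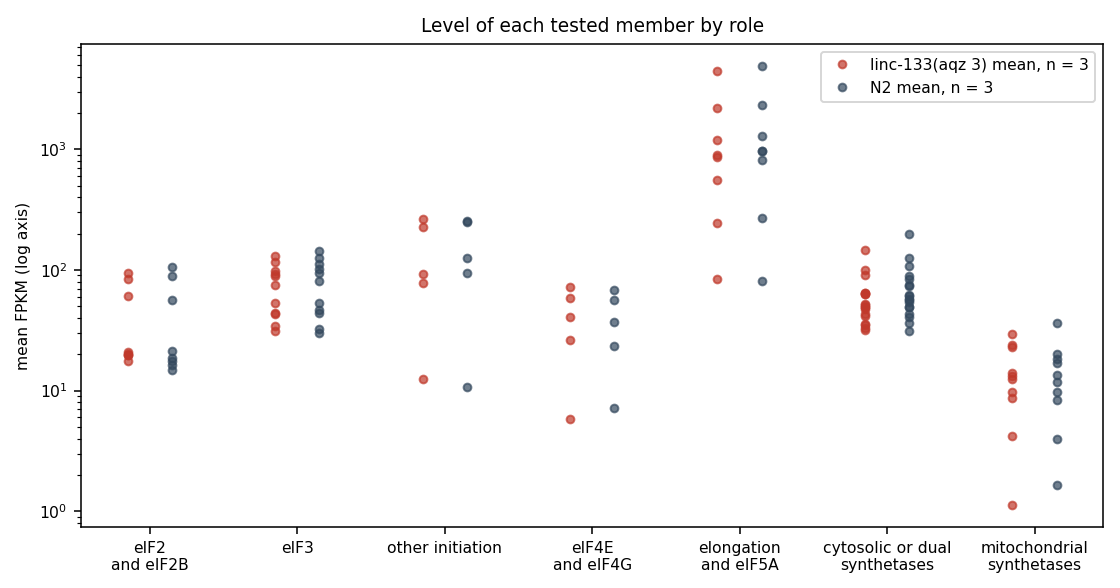
Mean FPKM of each of the 65 tested members on a log axis, by role, with mutant means left of N2 means (3 libraries each, 1 point per gene). Elongation genes reach 4678 FPKM over all libraries and mitochondrial synthetases reach down to 1.38 FPKM, and the 2 strains span much the same range in each role.

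Of the 70 members, 65 reached a mean of 1 FPKM and were tested with limma on log2(FPKM + 1), with Benjamini-Hochberg adjustment over 16794 genes. No member passed an adjusted p of 0.05, the lowest adjusted p being 0.204, and 0% of all tested genes did (0 of 16794). With voom on the recovered reads, another limma method, no member passed either, while 5 genes of the whole table did. At an unadjusted p under 0.05, 1 member was higher in the mutant (7.22% of all tested genes were) and 6 were lower (6.48% of all tested genes were). In 5 members the mutant libraries all lay above the N2 libraries (10.5% of all tested genes), and in 13 they all lay below (9.54% of all tested genes). The log2 change was below 0 in 46 of 65 members (50.2% of all tested genes) and above 0 in 19. The median change was -0.12 for the members and -0.0015 for all tested genes, on the log2(FPKM + 1) scale.

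These counts at an unadjusted p depended on single libraries. The 6 lower became 12 without mutant replicate 1, 3 without mutant replicate 2, and 1, 3 and 2 without N2 replicates 1, 2 and 3. The 1 higher member became 3 without mutant replicate 3, and 0 without mutant replicate 2 or N2 replicate 1. The mutant libraries also varied more among themselves: the SD of log2(FPKM + 1) was larger in mutant than in N2 libraries for 53 of 65 members, or 81.5%, against 66.2% of all tested genes. The median SD of a member was 0.204 in mutant libraries and 0.0818 in N2 libraries.

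**Figure D2:**
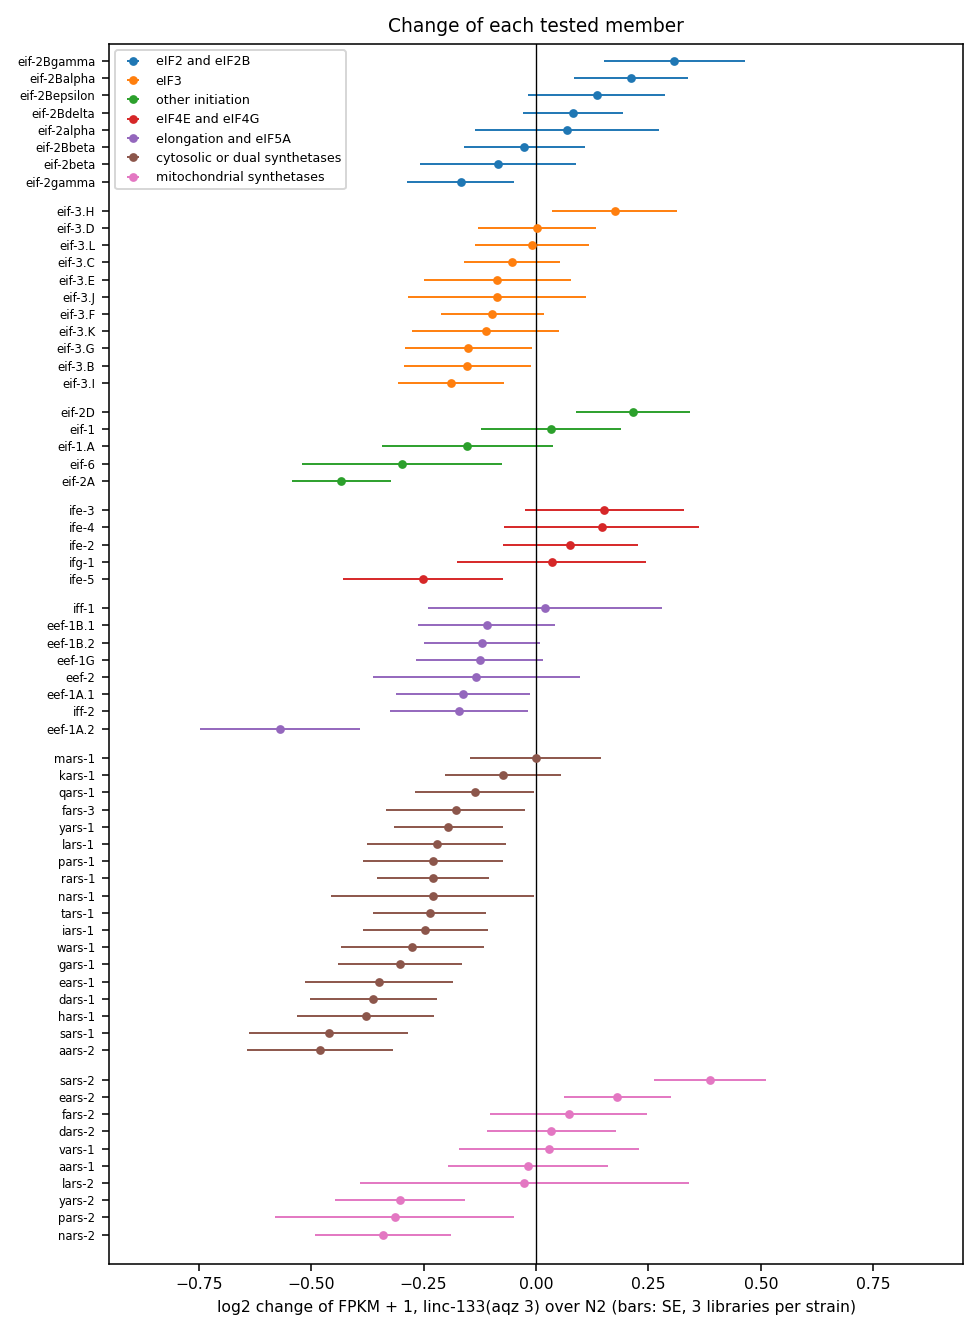
Log2 change of FPKM + 1 in linc-133(aqz 3) over N2 for each of the 65 tested members, grouped by role and ordered by size within a role (bars: standard error from limma, 3 libraries per strain). All 18 tested cytosolic synthetases lie at or left of 0, while eIF2B subunits and mitochondrial synthetases lie on both sides.

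Among the eIF2 and eIF2B genes, 5 of 8 had a higher mean log2 level in the mutant, with a median change of 0.08 that was 0.13 without mutant replicate 2. The 3 eIF2 subunits did not separate by strain. eif-2gamma, the GTP-binding subunit and the most abundant gene of the class (gene 171792, chromosome I, 2313271 to 2316001), measured 100.7, 91.6 and 91.4 FPKM in mutant, against 99.8, 107 and 112 FPKM in N2 libraries. Mutant replicate 1 overlapped the N2 range and the other two lay below it, and the log2 change was -0.17 ± 0.12 (SE; limma adjusted p = 0.586). eif-2alpha, the subunit that stress kinases phosphorylate, stood at 50.7, 49.9 and 81.2 FPKM in mutant libraries, against 55.4, 54.8 and 58.5 FPKM in N2. Mutant replicates 1 and 2 lay below N2 and replicate 3 above, so the strains overlapped.

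For eIF2B, the exchange factor of eIF2, log2 changes were above 0 in 4 of 5 subunits, with a median of 0.14, and in 2 the mutant libraries all lay above N2 (10.5% of all tested genes). eif-2Balpha, a regulatory subunit, measured 19.1, 17.7 and 15.7 FPKM in mutant, against 14.7, 15.6 and 14.6 FPKM in N2 libraries. All 3 mutant values lay above N2, the lowest by a small margin, and the change was 0.21 ± 0.13 on the log2 scale (SE; limma adjusted p = 0.507). eif-2Bdelta, also regulatory, stood at 19.6, 19.8 and 19.4 FPKM in mutant, against 18.7, 19.2 and 17.6 FPKM in N2. That was a small difference in tight values, at a mean of 106% of N2. eif-2Bgamma, a subunit of the catalytic core, had the largest change of the complex at 0.31 ± 0.16 (SE; limma adjusted p = 0.436), with 22.4, 20.4 and 17.9 FPKM in mutant and 18.2, 13.6 and 16.8 FPKM in N2. Its ranges overlapped.

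The scaffold eIF3, which binds the small ribosomal subunit, gave 9 of 11 subunits with a change below 0 and a median of -0.09 that was -0.04 without mutant replicate 3. None passed an unadjusted p of 0.05, and only eif-3.I was without overlap, with the mutant below (9.54% of all tested genes). It measured 92.0, 102 and 101 FPKM in mutant libraries, against 114, 107 and 117 FPKM in N2. The most abundant subunit, eif-3.G (gene 174346), measured 150.0, 126 and 117 FPKM in mutant and 135, 145 and 154 FPKM in N2 libraries. Here mutant replicate 1 lay within the N2 range and replicates 2 and 3 below it. eif-3.H alone among the subunits had a change above 0.1, at 0.18 ± 0.14 (SE; limma adjusted p = 0.637).

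The other 5 initiation factors held the member with the lowest p. eif-2A (gene 174606, chromosome II, 10416799 to 10419255), an alternative initiator tRNA carrier unrelated to the eIF2 complex, measured 93.3, 90.9 and 94.8 FPKM in mutant, against 127, 121 and 130 FPKM in N2 libraries. The strains were far from overlapping and both were tight, and the mutant mean was 73.8% of N2. Its log2 change was -0.43 ± 0.11 (SE), with a limma unadjusted p of 0.0061 and an adjusted p of 0.204. Without any 1 library the change stayed between -0.46 and -0.41. eif-2D, which can also place tRNA on the ribosome without eIF2, stood at 11.7, 12.7 and 13.2 FPKM in mutant, against 10.5, 11.5 and 9.96 FPKM in N2, without overlap in the other direction. The log2 change of eif-2D was 0.22 ± 0.13 (SE; limma adjusted p = 0.502).

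eif-1, which helps select the start codon, was the most abundant of these factors at 290.1, 288 and 215 FPKM in mutant and 242, 260.5 and 266 FPKM in N2 libraries. Mutant replicates 1 and 2 lay above N2 and replicate 3 below, and its change of 0.03 was -0.0095 with quantile scaling. eif-6, a factor that keeps the large ribosomal subunit from joining too early, stood at 105, 69.6 and 59.3 FPKM in mutant and 97.8, 98.4 and 84.8 FPKM in N2. Here too, mutant replicate 1 was above N2 and the other two were below. The class median of -0.15 was 0.02 without mutant replicate 3.

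The cap-binding factors came from 5 eIF4E genes and 1 eIF4G gene, none without overlap. Their median change of 0.08 was 0.008 without mutant replicate 1 and 0.20 without mutant replicate 3. ife-2 (gene 180393, chromosome X, 381338 to 382709), the eIF4E of somatic tissue, measured 84.5, 71.8 and 60.5 FPKM in mutant, against 66.1, 68.2 and 69.4 FPKM in N2 libraries. ife-3, an eIF4E that binds the ordinary cap, had 47.9, 41.2 and 34.2 FPKM in mutant and 43.2, 32.1 and 35.2 FPKM in N2. ife-4 stood at 31.6, 28.5 and 19.3 FPKM in mutant and 28.0, 22.3 and 20.3 FPKM in N2. In these 3 genes mutant replicate 1 was the highest of all libraries, and in ife-2 and ife-4 mutant replicate 3 was the lowest. ife-5, an eIF4E that also accepts the trimethylated cap of trans-spliced mRNAs, was scarcer at 6.90, 5.36 and 5.19 FPKM in mutant and 6.11, 6.92 and 8.32 FPKM in N2.

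Shares of the summed eIF4E level were compared as well. ife-2 made up 49.7 ± 0.96% of it in mutant and 50.3 ± 3.6% in N2 libraries (SD, n = 3 each). ife-3 made up 28.3 ± 0.38% in mutant and 27.1 ± 2.7% in N2, and ife-5 made up 4.02 ± 0.35% in mutant and 5.29 ± 0.99% in N2 (SD, n = 3 each). For each gene the shares of single libraries overlapped between strains. The lowest p was 0.2, for ife-5, in an exact two-sided permutation test. Its floor is 0.1, so the test cannot show that the shares were equal. The single eIF4G gene, ifg-1 (gene 174322), which links the cap-binding protein to the ribosome, measured 52.5, 45.5 and 78.9 FPKM in mutant and 55.2, 57.7 and 55.1 FPKM in N2 libraries. Its change of 0.03 was -0.19 without mutant replicate 3. Of all members, ifg-1 lies closest to linc-133, at 374825 bases.

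**Figure D3:**
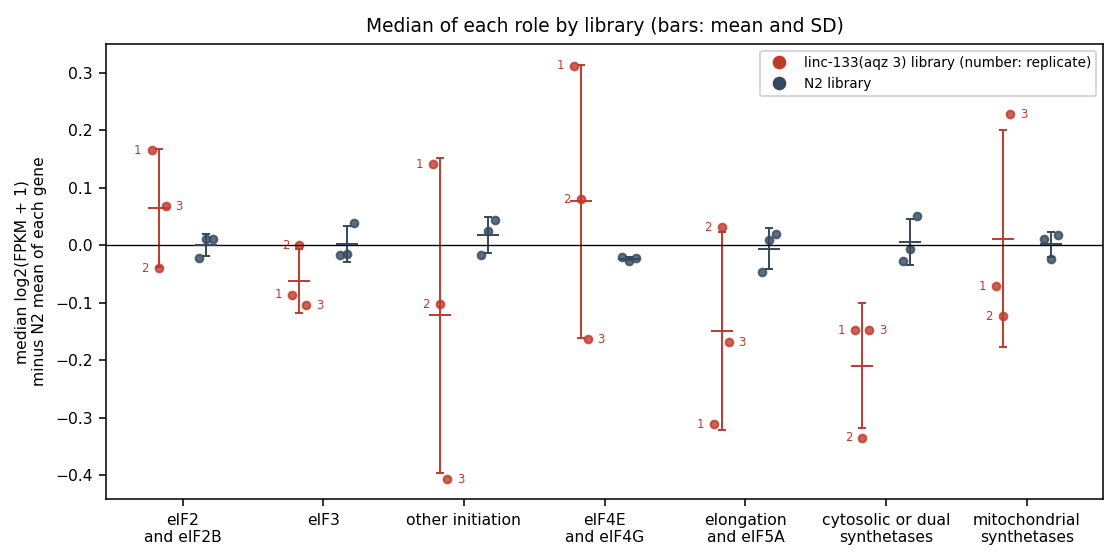
Median over the tested members of each role of log2(FPKM + 1) minus the N2 mean of each gene, 1 point per library, mutant left of N2 (bars: mean and SD of 3 libraries; numbers: mutant replicate). The cytosolic synthetases are the role in which all 3 mutant medians, -0.15, -0.33 and -0.15, lie below all 3 N2 medians, while mutant libraries lie on both sides of N2 in most other roles.

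Elongation genes were the most abundant members, and 7 of 8 had a change below 0, with a median of -0.13 that was -0.05 without mutant replicate 1 and -0.20 without mutant replicate 2. eef-1A.1 (gene 175975, chromosome III, 6969710 to 6971712) and eef-1A.2 (gene 181044, chromosome X, 7823654 to 7825769) encode nearly the same eEF1A protein. Reads of such close copies may be split between them in counting, so the level of each is uncertain and their sum is given too. eef-1A.2 measured 692, 453 and 513 FPKM in mutant, against 865, 802 and 758 FPKM in N2 libraries. All mutant libraries lay below N2, and the log2 change was -0.57 ± 0.18 (SE), the largest of any member, with a limma unadjusted p of 0.016 and an adjusted p of 0.260. eef-1A.1 stood at 3712, 4282 and 5326 FPKM in mutant and 4870, 5029 and 4849 FPKM in N2, where mutant replicate 3 was the highest library and the other two the lowest.

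The summed eEF1A level was 4404, 4735 and 5839 FPKM in mutant and 5735, 5830 and 5606 FPKM in N2 libraries. eef-1A.2 made up 15.7%, 9.56% and 8.79% of that sum in mutant and 15.1%, 13.8% and 13.5% in N2. Mutant replicate 1 had the highest share of all libraries and the other two the lowest, and the shares did not separate by strain (exact two-sided permutation p = 0.4, with a floor of 0.1). eef-2, the translocation factor, likewise ran from below to above N2 at 1520, 2142 and 2891 FPKM in mutant replicates 1, 2 and 3, against 2213, 2320 and 2419 FPKM in N2. The 4 intestinal markers summed to 2024, 2785 and 3255 FPKM in mutant and 3050, 3326 and 3322 FPKM in N2 libraries. Most of that sum was the protease gene asp-1, with 1970 FPKM in mutant replicate 1. In that library asp-1 and ges-1 were both at their lowest, ges-1 at 19.3 FPKM against 29.0, 23.1 and 22.3 FPKM in N2. The intestinal regulator elt-2 measured 19.5 FPKM there, above all 3 N2 libraries at 18.8, 19.06 and 13.8 FPKM. elt-7 had 15.3 FPKM there, against 13.5, 16.0 and 16.8 FPKM in N2, so the 4 markers did not share a lowest library. Muscle markers summed to 1664, 2034 and 3919 FPKM in mutant and 2230, 2483 and 2225 FPKM in N2. In mutant replicate 3 unc-54, unc-15 and myo-3 were at their highest, at 1672, 1346 and 362 FPKM. unc-27 did not follow, at 430, 587 and 538 FPKM in mutant replicates 1, 2 and 3. The part of either tissue in the elongation levels was not tested.

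The exchange factors that reload eEF1A were close between strains. eef-1B.1, eef-1B.2 and eef-1G had mean levels at 93.4%, 92.3% and 92.1% of N2, with overlap in each. Of the 2 eIF5A genes, iff-2 (gene 174367), the form of somatic tissue, measured 718, 1029 and 836 FPKM in mutant and 937, 970 and 970 FPKM in N2 libraries. iff-1 (gene 176373), the germline form, had 107, 93.3 and 54.01 FPKM in mutant and 90.4, 76.3 and 74.8 FPKM in N2. In iff-1 mutant replicates 1 and 2 were above N2 and replicate 3 below, and its change of 0.02 was -0.004 with quantile scaling and -0.17 without mutant replicate 1. The share of iff-1 in the eIF5A sum was 9.10 ± 3.5% in mutant and 7.75 ± 0.91% in N2 libraries (SD, n = 3 each).

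Synthetases of the cytosol, including those with 1 enzyme for both compartments, mostly had lower mean levels in the mutant. All 18 that were tested had a log2 change below 0, the least being mars-1 at -0.0008, with a class median of -0.23 and a median mutant level of 84.9% of N2. In 8 of the 18 every mutant library lay below every N2 library, and in none above (9.54% and 10.5% of all tested genes). An unadjusted p under 0.05 was reached by 4, all lower (6.48% of all tested genes), and no adjusted p fell below 0.282. The count of 18 was 17 without mutant replicate 1 or 2, or without N2 replicate 1 or 3. The class median ranged between -0.29 and -0.18 without any 1 library, and no test over the class was made.

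aars-2 (gene 171985, chromosome I, 3983183 to 3986592), which charges alanine tRNA in the cytosol, measured 76.1, 52.3 and 65.0 FPKM in mutant, against 90.4, 85.0 and 92.6 FPKM in N2 libraries. The strains did not overlap, and the log2 change was -0.48 ± 0.16 (SE; limma unadjusted p = 0.022, adjusted p = 0.282). sars-1 (gene 177859, chromosome IV, 10003726 to 10005599), for serine and the most abundant of the class, measured 183, 123 and 131 FPKM in mutant, against 187, 201 and 204 FPKM in N2. Mutant replicate 1 came close to N2 and the other two lay far below. The log2 change of sars-1 was -0.46 ± 0.18 (SE; limma unadjusted p = 0.036, adjusted p = 0.332).

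dars-1 (gene 176334, chromosome III, 9489176 to 9491215), for aspartate, had 114, 96.6 and 86.1 FPKM in mutant, against 126, 130.0 and 124 FPKM in N2 libraries. hars-1 (gene 177978, chromosome IV, 10858957 to 10861295), which charges histidine tRNA, had 77.4, 56.5 and 60.4 FPKM in mutant, against 82.9, 79.9 and 88.6 FPKM in N2. Both were without overlap, with mutant replicate 1 nearest to N2. The log2 change was -0.36 ± 0.14 for dars-1 and -0.38 ± 0.15 for hars-1 (SE; limma unadjusted p = 0.038 and 0.043, adjusted p = 0.336 and 0.348). ears-1, the glutamate enzyme (gene 172904), followed with 52.0, 39.0 and 57.2 FPKM in mutant, against 64.4, 62.5 and 60.4 FPKM in N2. Those also lay apart, but the change of -0.35 ± 0.16 missed the unadjusted threshold (SE; limma adjusted p = 0.413) and was -0.19 without mutant replicate 2.

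**Figure D4:**
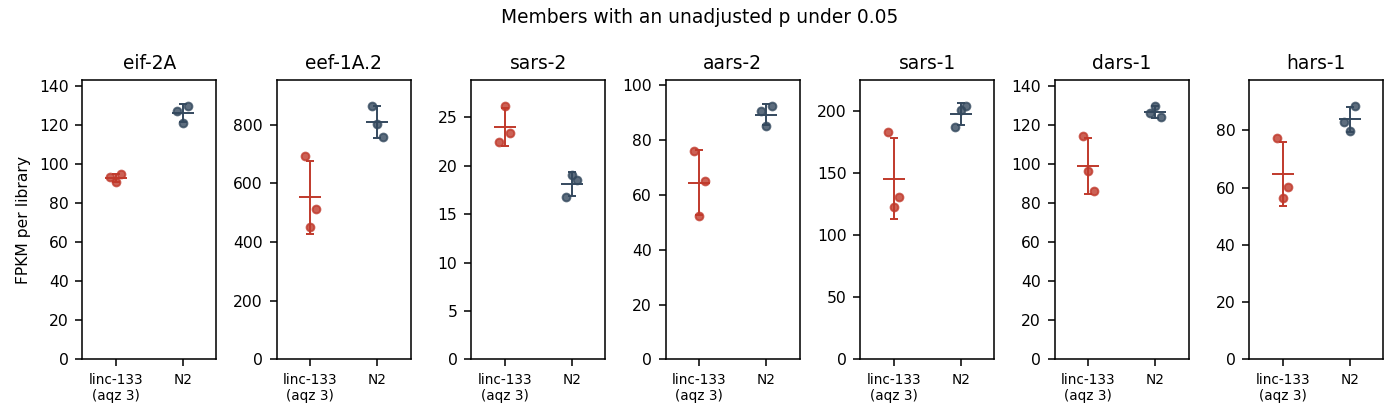
FPKM in each library of the 7 members with an unadjusted p under 0.05, mutant left of N2 (points: libraries; bars: mean and SD of 3 libraries; each axis starts at 0). In all 7 the strains are apart, with sars-2 higher in the mutant and the other 6 lower, and in the 4 cytosolic synthetases and eef-1A.2 mutant replicate 1 lies nearest to N2.

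The remaining 3 cytosolic genes without overlap were gars-1 (glycine), tars-1 (threonine) and yars-1 (tyrosine), with mutant means of 81.2%, 84.9% and 87.4% of N2. Enzymes for branched-chain amino acids overlapped: lars-1 (leucine) had 84.3, 85.0 and 105.6 FPKM in mutant and 93.2, 109 and 118.7 FPKM in N2 libraries. iars-1 (isoleucine) had 38.0, 40.0 and 46.2 FPKM in mutant and 44.5, 48.7 and 54.7 FPKM in N2. The smallest differences were in mars-1 (methionine) at 100.7% of the N2 mean FPKM and kars-1 (lysine) at 94.8%.

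By library, the summed FPKM of the 18 genes was 1151, 965 and 1068 in mutant replicates 1, 2 and 3, against 1258, 1292 and 1334 in N2. Mutant replicate 2 was the lowest library in 9 of the 18 genes, mutant replicate 1 in 6, mutant replicate 3 in 2 and N2 replicate 2 in 1. N2 replicate 3 was the highest in 12. The lower sum was present in all 3 mutant libraries and deepest in replicate 2, while mutant replicate 1, the lowest library in 5 of 8 elongation genes, had the highest sum of the 3. The 4 markers of first-stage larvae summed to 231, 287.5 and 315.5 FPKM in mutant and 319.5, 317 and 322 FPKM in N2 libraries. They did not move together, with 1 log2 change above 0 and 3 below. lin-42 averaged 2.39 FPKM in mutant and 2.03 FPKM in N2. lin-14 in mutant replicate 3, at 141 FPKM, lay above all N2 libraries, the highest of which had 113 FPKM. Of the 4 markers only hbl-1, a timing gene, had no overlap, with the mutant below (9.54% of all tested genes). It measured 32.8, 21.6 and 30.9 FPKM in mutant, against 62.2, 42.7 and 35.4 FPKM in N2 (limma unadjusted p = 0.031, adjusted p = 0.318). The part of larval timing in the synthetase levels was not tested.

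Mitochondrial synthetases showed no common direction, with 5 changes above 0 and 5 below among the 10 tested and a median of 0.005. That median was -0.17 without mutant replicate 3. sars-2 (gene 177200, chromosome IV, 4357636 to 4359947), the mitochondrial serine enzyme, measured 22.5, 26.2 and 23.4 FPKM in mutant, against 16.7, 19.05 and 18.6 FPKM in N2 libraries. It was the single member higher at an unadjusted p, without overlap and with a mean at 132.5% of N2, and its log2 change was 0.39 ± 0.12 (SE; limma unadjusted p = 0.018, adjusted p = 0.265). ears-2, for glutamate in mitochondria, stood at 23.6, 20.9 and 24.6 FPKM in mutant, against 19.8, 20.2 and 20.4 FPKM in N2. Here too the strains did not overlap, at a change of 0.18 ± 0.12 (SE; limma adjusted p = 0.553).

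In the other direction, nars-2 (asparagine, gene 176578) measured 15.5, 12.6 and 11.3 FPKM in mutant, against 15.9, 16.3 and 18.2 FPKM in N2 libraries. pars-2 (proline, gene 173117) was near the limit of testing at 0.933, 1.19 and 1.23 FPKM in mutant, against 1.71, 1.39 and 1.80 FPKM in N2. Its change of -0.31 ± 0.27 is on the log2(FPKM + 1) scale, which understates the change of low genes (SE; limma adjusted p = 0.661). yars-2 (tyrosine, gene 177237), the most abundant of the class, stood at 35.0, 26.95 and 26.6 FPKM in mutant and 34.6, 36.7 and 37.8 FPKM in N2. There mutant replicate 1 lay within the N2 range and the other two below it. lars-2 (leucine) varied most among mutant libraries, at 11.5, 6.44 and 19.8 FPKM, against 14.0, 11.6 and 9.82 FPKM in N2.

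For 9 amino acids a cytosolic and a mitochondrial enzyme were both measured, and the ratio of their FPKM in one library does not depend on the scaling between libraries. Log2 differences and tests of the ratios used log2(FPKM + 1) instead, so the added 1 makes them depend somewhat on scaling. The ratio for serine, sars-1 over sars-2, was 8.12, 4.68 and 5.59 in mutant, against 11.2, 10.5 and 10.99 in N2 libraries, a difference of -0.85 on that log2 scale. For glutamate the ratio was 2.20, 1.87 and 2.32 in mutant, against 3.25, 3.09 and 2.96 in N2. For alanine it was 8.35, 6.54 and 5.31 in mutant, against 8.62, 8.96 and 9.88 in N2. In these 3 amino acids all mutant ratios lay below all N2 ratios. Each gave p = 0.1 in an exact two-sided permutation test, the smallest that 3 libraries against 3 can give, and 0.3 after adjustment over the 9 ratios.

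In the other 6 the ratios overlapped, among them aspartate at 15.4, 10.9 and 8.97 in mutant and 15.6, 15.3 and 14.6 in N2 libraries. Tyrosine, asparagine and proline had differences of log2(FPKM + 1) above 0, of 0.11, 0.11 and 0.09. For proline the added 1 weighs heavily, because pars-2 was near 1 FPKM. Its FPKM ratios were 79.8, 46.9 and 47.4 in mutant and 46.0, 54.4 and 36.7 in N2 libraries. The serine difference joins 2 members already named for their own values and is no separate evidence of either. The same limit holds for glutamate, because ears-1 and ears-2 each lacked overlap on their own, in opposite directions. It holds for alanine too, which joins aars-2, already named as lower, to aars-1. The log2 change of aars-1 was -0.02 ± 0.18 (SE), with overlap. Phenylalanine rests on the beta subunit fars-3 of the cytosolic enzyme, since its alpha subunit was not tested.

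**Figure D5:**
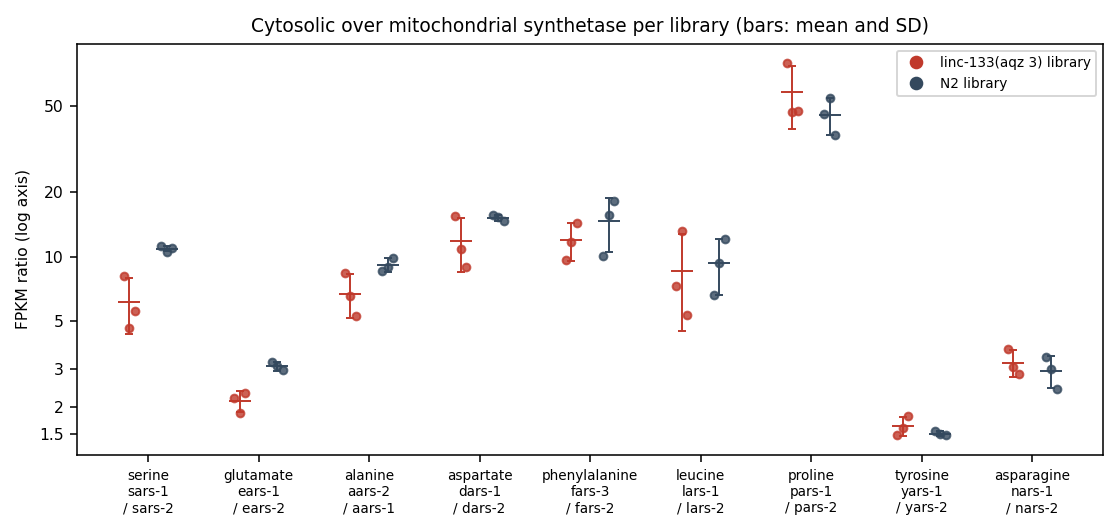
Ratio of cytosolic to mitochondrial synthetase FPKM in each library for 9 amino acids on a log axis, mutant left of N2 (points: libraries; bars: mean and SD of 3 libraries), ordered by the difference of the mean log2 ratio. Serine, glutamate and alanine are the amino acids whose mutant ratios all lie below the N2 ratios.

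The 5 members below 1 FPKM were cars-1, rars-2, ife-1, fars-1 and iars-2, and all lie under other annotated genes. cars-1 (cysteine, chromosome I, 2623099 to 2628577) was listed at 0 in all libraries, and the noncoding Y23H5A.12, counted over its whole 13881 bases, covers 100% of it, and 2.94% of its exonic bases lie in exons of another gene of the Ensembl annotation. rars-2, the mitochondrial arginine enzyme, was also listed at 0, and 97.9% of its span lies within C29H12.2 on the same strand. The Ensembl annotation has no exonic base shared between them. The deposited length of C29H12.2, however, is 3820 of the 4131 bases it spans, so by that length its exons overlap those of rars-2. C29H12.2 averaged 21.9 ± 4.1 FPKM in mutant and 28.2 ± 1.7 FPKM in N2 libraries (SD, n = 3 each). fars-1, the alpha subunit of the phenylalanine enzyme, had 8 reads over the 6 libraries, while its partner subunit fars-3 measured 44.8, 49.0 and 53.7 FPKM in mutant and 46.7, 58.1 and 63.3 FPKM in N2.

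The span of fars-1 is covered to 97.8% by mrpl-23, whose description in the deposited table also names a phenylalanine tRNA ligase alpha subunit. On the same strand ech-1.2 covers 84.1% of fars-1, at means of 39.6 FPKM in mutant and 38.1 FPKM in N2. ife-1, a germline eIF4E, had 1 read in all, and dro-1, described in that table with eIF4E-1, was itself listed at 0 across 49.0% of the ife-1 span. acaa-2 covers 43.3% of the ife-1 span on the same strand and averaged 94.65 FPKM in mutant and 87.95 FPKM in N2. iars-2 had 88 reads, and C25A1.20, described with an isoleucine tRNA ligase and covering 87.3% of it, was listed at 0. By exons of the Ensembl annotation, 1.04% of fars-1, 24.7% of ife-1 and 5.82% of iars-2 were shared with other genes. The deposited lengths are 2243 of the 3321 bases spanned for mrpl-23 and 3299 of 4167 for C25A1.20. By those lengths, more of fars-1 and iars-2 was shared than the Ensembl exons give. nars-1, tars-1 and gars-1 are also covered by other genes over nearly their whole span and had means of 33.3 FPKM or more in both strains. Of their exonic bases 0%, 0.158% and 0% are shared in the Ensembl annotation, and sharing in the deposited gene models was not examined. How reads shared by overlapping genes were assigned is not given in the sources used here, and its part in these 5 levels was not tested, so they cannot be read as absence of the mRNA.

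Other genes of the pathway were taken from 6 lists chosen with earlier results of these data known. Of 90 listed genes, 61 were in the table under those names and 59 were tested. None passed an adjusted p of 0.05 (lowest limma adjusted p = 0.180). At an unadjusted p under 0.05, 2 were higher (7.22% of all tested genes) and 14 lower (6.48% of all tested genes), and the change was below 0 in 39 and above 0 in 20, with a median of -0.12. In 16 the mutant libraries all lay below N2 (9.54% of all tested genes) and in 3 they all lay above (10.5%).

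Among factors outside the name pattern, 6 of 19 were lower at an unadjusted p (6.48% of all tested genes) and none higher (7.22%). dhps-1, deoxyhypusine synthase, which adds the modification that eIF5A needs, averaged 11.8 ± 1.2 FPKM in mutant and 18.1 ± 0.94 FPKM in N2 libraries (SD, n = 3 each). Its log2 change was -0.58 ± 0.13 (SE; limma adjusted p = 0.180). pab-2, a poly(A)-binding protein, stood at 75.8, 59.1 and 76.2 FPKM in mutant, against 98.1, 106 and 104 FPKM in N2, at a change of -0.55 ± 0.14 (SE; limma adjusted p = 0.213). inf-1, the eIF4A helicase that works with ifg-1, had 40.4, 39.8 and 37.1 FPKM in mutant, against 50.4, 52.2 and 53.4 FPKM in N2. It falls outside the naming rule and was chosen after its values were seen. The 3 genes were without overlap between strains.

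Of 9 genes for tRNA modification and transport, 4 were lower (6.48% of all tested genes) and none higher (7.22%) at an unadjusted p. elpc-3, the catalytic subunit of Elongator, which modifies the wobble base of tRNA, measured 46.2, 44.6 and 41.7 FPKM in mutant, against 51.9, 61.0 and 63.6 FPKM in N2 libraries. tut-1, a tRNA thiolation enzyme, had 34.6, 33.1 and 38.2 FPKM in mutant, against 40.8, 52.2 and 54.2 FPKM in N2. Both were without overlap, at log2 changes of -0.40 ± 0.13 and -0.45 ± 0.15 (SE, limma adjusted p = 0.265 and 0.274). The list as a whole had 3 changes above 0 and 6 below, with a median of -0.05. elpc-2, another Elongator gene, was higher without overlap, at 9.08, 8.99 and 9.13 FPKM in mutant, against 6.93, 6.69 and 7.89 FPKM in N2. tut-2 averaged 15.7 FPKM in mutant and 13.2 FPKM in N2, with overlap. None of 4 release and recycling genes reached an unadjusted p of 0.05. Their lowest were abce-1, the recycling ATPase, at a change of -0.37 ± 0.20, and erfa-1, the release factor, at -0.32 ± 0.30 (SE; limma adjusted p = 0.461 and 0.683).

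Genes of the response to amino acid shortage went in both directions. asns-2, an asparagine synthetase, measured 106, 89.0 and 80.8 FPKM in mutant, against 156, 178 and 131 FPKM in N2 libraries. atf-4, the transcription factor whose translation rises when eIF2 is phosphorylated, measured 127, 142 and 144 FPKM in mutant, against 98.5, 103 and 92.8 FPKM in N2. Neither overlapped between strains, and the log2 changes were -0.74 ± 0.17 for asns-2 and 0.48 ± 0.12 for atf-4 (SE; limma adjusted p = 0.180 and 0.198). In mammals, synthetase and asparagine synthetase genes are known targets of ATF4. The kinase pek-1, which phosphorylates eIF2, stood at 33.2, 49.2 and 102 FPKM in mutant and 30.98, 36.0 and 32.9 FPKM in N2, and was named after its values were seen. Its mutant replicate 1 overlapped N2 and replicate 3 lay far above.

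In the TOR list 3 of 13 tested genes were lower (6.48% of all tested genes) and none higher (7.22%) at an unadjusted p. akt-1, a kinase of insulin signalling upstream of TOR, measured 83.2, 86.9 and 92.4 FPKM in mutant, against 126, 123 and 123 FPKM in N2 libraries. pdk-1, which activates akt-1, had 16.6, 22.3 and 25.7 FPKM in mutant, against 31.2, 28.9 and 29.3 FPKM in N2. Both were without overlap, at log2 changes of -0.50 ± 0.11 and -0.47 ± 0.17 (SE; limma adjusted p = 0.180 and 0.318). The TOR kinase let-363 itself stood at 18.0, 17.7 and 34.8 FPKM in mutant and 24.8, 23.8 and 22.9 FPKM in N2, with mutant replicates 1 and 2 below N2 and replicate 3 above.

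Among 5 mitochondrial translation factors, 1 was higher (7.22% of all tested genes) and none lower (6.48%) at an unadjusted p under 0.05. It was tufm-2, a mitochondrial EF-Tu that delivers charged tRNA as eEF1A does in the cytosol. It measured 18.1, 17.9 and 20.1 FPKM in mutant, against 13.5, 12.1 and 13.2 FPKM in N2 libraries, at a log2 change of 0.50 ± 0.12 (SE; limma adjusted p = 0.189). Its more abundant relative tufm-1 stood at 73.4, 73.9 and 71.9 FPKM in mutant and 76.1, 68.7 and 78.6 FPKM in N2, with overlap. gfm-1, the mitochondrial translocation factor, overlapped as well, at a change of -0.24 ± 0.14 (SE; limma adjusted p = 0.498).

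The members were spread over all 6 chromosomes but not evenly. Chromosome I held 20 of the 70 and chromosome II 17, or 28.6% and 24.3%, against 14.3% and 15.3% of all tested genes. The X chromosome held 3 (ife-2, ife-4 and eef-1A.2), or 4.29%, against 14.98% of all tested genes. No member lay within 374825 bases of linc-133, and the 3 nearest on chromosome II, ifg-1, eif-3.G and fars-3, all overlapped between strains.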

How the data were processed

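Gene values were deposited by the authors as FPKM, per the file headers, for 3 mutant and 3 N2 libraries. Per the labels' protocols, total RNA went into a TruSeq RNA kit (no strand information) and a GAIIx sequencer. Bowtie 0.12.2, STAR 2.5.2b, StringTie and WBcel235 are named, without roles, per the submitters' processing notes. How reads were counted, with or without strand, and from which annotation is not given in the sources used here. FPKM times gene length gave whole reads for 100% of 131954 values above 0, within 0.01 of a read. Depth was 16108063 to 18556695 recovered reads.

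The 16794 genes whose mean reached 1 FPKM were tested on log2(FPKM + 1) in limma 3.58.1 (R 4.3.3), using trend and robust moderation, by strain alone, with Benjamini-Hochberg adjustment over all of them. The script was tested on simulated data. Ratios, as differences of log2(FPKM + 1), and shares were compared with exact two-sided permutation tests. Spans were compared with the Ensembl annotation of WBcel235, in which all 70 names matched.

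Members, roles and lists were chosen with earlier results of these data known. A few list entries that are not translation genes by annotation were dropped after the table was read. Named are members with an adjusted or unadjusted p under 0.05, the 10 largest changes, the most abundant of each role, all ife, ifg and iff genes, and the 2 lowest p of each list. Genes added for a count, an absence of overlap or a place in a complex were chosen after their values were seen. Alternatives covered the pseudocount, filter, scaling, moderation, replicate block, voom and leaving out libraries.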

Additional observations from a re-analysis of the deposited data

How the results depend on the processing

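No member and no other listed pathway gene passed the adjusted p of 0.05 under any alternative run, and the cytosolic synthetases kept a median below 0 in all. The edgeR and DESeq2 alternatives planned beforehand were not run, because the table holds FPKM, and voom on recovered reads took their place. Chosen after seeing the data were a filter at 10 recovered reads on average, values without the authors' scaling, and voom that weights each library by its quality. The smallest weight in the weighted voom fit was 0.249, for mutant replicate 3. Where a value moved the cause was not tested.

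Members lower at an unadjusted p numbered 6, against 3 with neither trend nor robust moderation, with voom or without the authors' scaling, and 1 to 12 without 1 library. Members higher numbered 1, against 2 with weighted voom and 0 to 3 without 1 library. The members' median of -0.12 was -0.155 with quantile scaling, -0.0906 with weighted voom and -0.157 to -0.0861 without 1 library, and the eIF3 median of -0.09 was -0.0292 with weighted voom. The mitochondrial synthetase median of 0.005 was -0.167 to 0.0531 without 1 library. Over all genes 0 passed the adjusted p, against 23 with neither trend nor robust moderation, 5 with voom, 467 with weighted voom, 1 among protein-coding genes alone, 1 with the filter at 10 reads and 9 at an adjusted p of 0.1. Cytosolic synthetases with a change below 0 numbered 18, against 17 with a pseudocount of 5 FPKM or weighted voom and 19 with no filter, which adds fars-1.

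Reversed signs occurred in named members with changes near 0. eif-1 (0.0339) was -0.0095 with quantile scaling and -0.0390 to 0.175 without 1 library. iff-1 was -0.00409 with quantile scaling and -0.173 to 0.311 without 1 library. ifg-1 was -0.0906 with weighted voom and -0.192 to 0.199 without 1 library, and ife-2 was -0.0417 to 0.196 without 1 library.

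The replicate numbers of the titles were tested as a block. Over all tested genes, the deviations of same-numbered libraries of the strains had correlations of 0.0162, -0.0344 and 0.0288. Not every library correlated best with its own number. These values cannot tell whether same-numbered libraries were handled together, because a shared step could touch only some genes. With the replicate block 3 members were lower at an unadjusted p, 1 was higher and 0 passed the adjusted p.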
